A study of Mus musculus with 12 samples.

Results

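NFAT factors and the phosphatase calcineurin that activates them were followed as 10 genes in naïve CD8 T cells: Nfatc1, Nfatc2, Nfatc3 and Nfat5 encode NFAT factors, Ppp3ca, Ppp3cb and Ppp3cc the catalytic subunits of calcineurin, Ppp3r1 its regulatory subunit, and Rcan1 and Cabin1 proteins that bind and restrain it. The genes were chosen by symbol, and all 10 were found among the 14323 symbols counted and were abundant enough to be tested in each comparison. The donors were 3 wild type mice, whose spleen cells had been sorted as positive for TCRβ, CD8 and CD62L and negative for CD44. For 6 h, wells of 100000 cells held either no anti-CD3 or 2.5 µg/ml of immobilized anti-CD3ε (145-2C11), an antibody that engages the T cell receptor complex, combined with 2.5 µg/ml of the LAIR-1 antibody 2C7 or of its isotype control. Each of the 4 conditions (isotype or anti-LAIR-1, each without or with anti-CD3) gave 3 libraries, 1 from each mouse. The 12 libraries thus share their 3 animals. The deposited names of the unstimulated libraries carry iso where those of the stimulated ones carry aCD3. Whether the unstimulated wells also held an isotype control for anti-CD3 is not stated in the study's methods. LAIR-1 is an inhibitory receptor for collagen, and 2C7 is used to trigger it.

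In a resting T cell, NFATc1, NFATc2 and NFATc3 are kept phosphorylated in the cytoplasm. Receptor engagement opens calcium channels, calcium and calmodulin activate calcineurin, and calcineurin strips phosphates from NFAT so that it enters the nucleus, where it acts with AP-1 on genes of cytokines and activation. NFAT5 shares the DNA-binding region but not the calcineurin docking region, and is best known as the factor that responds to high salt outside the cell. Cyclosporin A and tacrolimus suppress T cells by blocking calcineurin. RNA levels, which are all that was measured here, do not show where NFAT is or whether calcineurin is active.

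Library totals lay between 1781218 and 7725545 counts. With isotype they were 1781218 to 2957929 without anti-CD3 and 3478294 to 6555730 with it. With anti-LAIR-1 they were 3547294 to 3589194 without anti-CD3 and 4889990 to 7725545 with it. Totals were thus apart in both anti-CD3 comparisons and between the antibodies without anti-CD3. Only between the antibodies with anti-CD3 did they overlap. Mitochondrial transcripts made up 17.6 to 20.9% of counts without anti-CD3 and 11.5 to 13.2% with it, and this fall moved with every effect of anti-CD3 given here. All 10 listed markers of naïve CD8 T cells were detected in each group. Their summed level was 6656 to 7284 CPM (counts scaled to library size and composition) in the unstimulated libraries, 2286 to 2479 with anti-CD3 and isotype, and 2861 to 3344 with anti-CD3 and anti-LAIR-1. Summed markers of CD4 T cells reached at most 4.85 CPM and those of B cells 9.71, while those of myeloid cells lay at 46.4 to 64.2 CPM without anti-CD3 and 29.0 to 46.1 CPM with it, and the one erythroid marker measured at 0.408 CPM or less. The NK cell list summed to 444 to 502 CPM without anti-CD3, of which Klrd1, a gene that CD8 T cells also express, made up 417 to 474 CPM. With anti-CD3 the list summed to 114 to 134 CPM with isotype and 169.9 to 189.6 CPM with anti-LAIR-1. The part of these shifts in the results was not tested. Lair1 itself had between 0 and 7 counts per library, too few to test.

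The counts come from tags near the polyadenylated end of each transcript and were summed per gene symbol, so that isoforms of a gene were not told apart. In the GENCODE M21 annotation of GRCm38, Nfatc1 (chr18:80606205-80713071, minus strand) has 6 protein-coding transcripts that end at 2 places 41230 bases apart, and both kinds fall into 1 count. The terminal exon of Ppp3r1 (chr11:17159263-17200375) is overlapped by Wdr92 on the same strand, so that its counts are less certain. The other members with a gene over a terminal exon are Nfatc3 (chr8:106058840-106130537), by Esrp2, and Ppp3cc (chr14:70217865-70289471), by an antisense gene, both on the opposite strand and neither with a row in the count table.

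**Figure D1:**
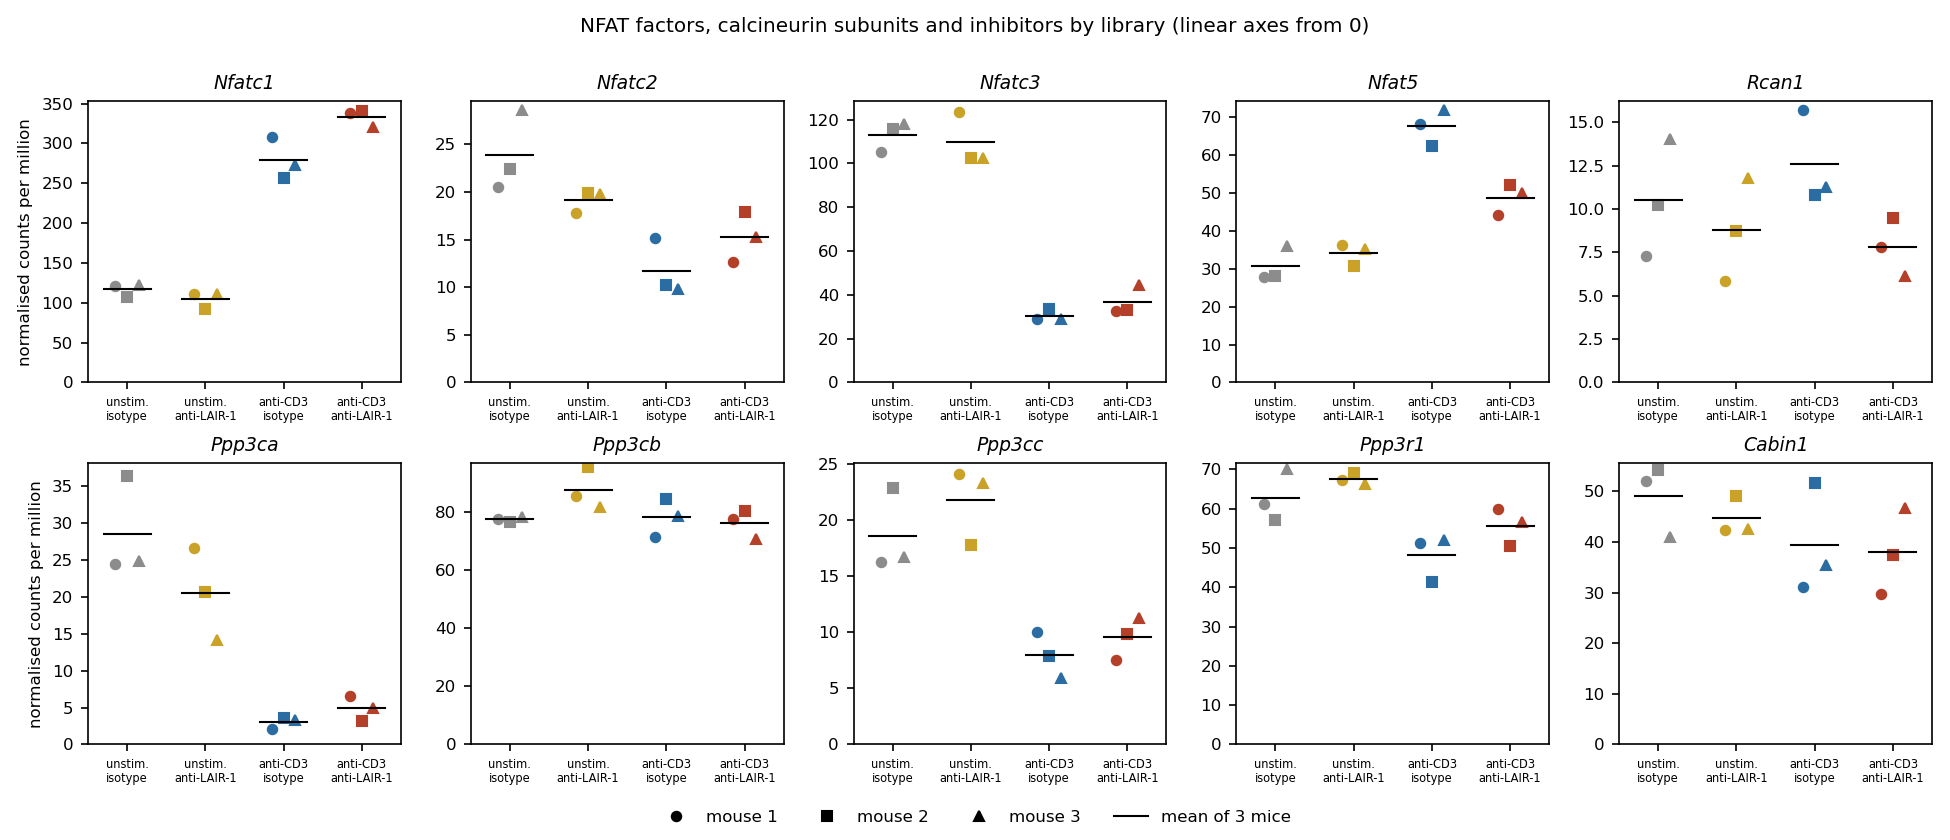
Normalised counts (CPM) of the 10 genes (linear axes from 0) in the 4 conditions, 1 point for each of 3 mice and a line at the mean of each condition. With anti-CD3, Nfatc1 and Nfat5 stood above all unstimulated libraries and Nfatc3, Ppp3ca, Ppp3cc and Ppp3r1 below them, apart from the overlap of 1 anti-CD3 anti-LAIR-1 library of Ppp3r1 with the unstimulated isotype libraries.

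Anti-CD3 moved the NFAT genes in opposite directions. With isotype control, Nfatc1 rose 2.34-fold and Nfat5 2.18-fold, whereas Nfatc3 fell 3.79-fold and Nfatc2 2.11-fold. Of the calcineurin genes, Ppp3ca fell 9.25-fold, Ppp3cc 2.47-fold and Ppp3r1 1.33-fold. Ppp3cb, Rcan1 and Cabin1 did not pass the test. In all, 2 of the 10 genes were higher and 5 lower, where 35.3% of the 8690 genes tested were higher and 36.1% lower (71.3% in either direction). A share of 7 in 10 is thus near the background. The groups of 7 of the 10 genes did not overlap, against 73.5% of all genes. With anti-LAIR-1 in the wells, 2 genes were higher and 4 lower, where 72.7% of 9000 genes passed (36.4% higher, 36.3% lower), and 7 of the 10 did not overlap, against 74.8%. Under upper quartile scaling 9 of the 10 passed in that comparison, with Nfatc2, Ppp3cb and Cabin1 also lower, and 2699 of all genes were higher and 3956 lower, in place of 3276 and 3265. All levels are relative to the total of each library. Changes in cell number and in RNA per cell, in either direction, cannot be told apart here, and a relative fall need not be a fall per cell.

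Nfatc1 has a short isoform that is known to be induced in activated lymphocytes. The gene was at 120.5, 107 and 122 CPM in the unstimulated isotype libraries of mice 1, 2 and 3. With anti-CD3 it was at 307, 257 and 273 CPM. The lowest stimulated library was more than double the highest unstimulated one. The log2 difference was 1.22 (SE 0.105, n = 3 per group), with an adjusted p of 3.2e-10 in edgeR's quasi-likelihood test. With anti-LAIR-1 in the wells, Nfatc1 stood at 111, 92.6 and 111 CPM without anti-CD3 and at 339, 340.5 and 320.1 CPM with it. The log2 difference there was 1.66 (SE 0.0883, adjusted p 2.8e-12).

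Nfatc3, which with Nfatc2 is among the NFAT genes already transcribed in resting T cells, was at 105, 116 and 118 CPM without anti-CD3 and at 28.7, 33.7 and 28.8 CPM with it. Under anti-LAIR-1 it was at 124, 103 and 103 CPM without and at 32.8, 33.1 and 44.5 CPM with anti-CD3. The groups did not overlap in either pair. The log2 differences were -1.92 (SE 0.127, adjusted p 2.9e-12) with isotype and -1.59 (SE 0.126, adjusted p 9.6e-10) with anti-LAIR-1.

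Nfatc2 was at 20.5, 22.5 and 28.6 CPM in unstimulated isotype libraries and at 15.1, 10.2 and 9.81 CPM with anti-CD3. The log2 difference was -1.08 (SE 0.231, adjusted p 0.00024), and mouse 1 showed the smallest of the 3 drops. With anti-LAIR-1 the values were 17.7, 19.9 and 19.8 CPM without and 12.7, 17.9 and 15.3 CPM with anti-CD3, and the groups overlapped. This difference of -0.34 (95% interval -0.72 to 0.04, adjusted p 0.10) did not pass the test, although it did under upper quartile scaling (-0.55, adjusted p 0.011). The anti-CD3 effects on Nfatc2 were not shown to differ between the antibodies, since the interaction was 0.71 (SE 0.290, adjusted p 0.29).

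Because Nfatc1 rose while both relatives fell, its share of the counts of the 3 genes changed. That share was 46.0% ± 2.67 (SD, n = 3) in unstimulated isotype libraries and 86.9% ± 1.24 with anti-CD3, and 44.8% ± 2.42 and 86.5% ± 2.00 with anti-LAIR-1. Single libraries ranged from 43.0 to 48.9% without anti-CD3 and from 84.3 to 88.2% with it, and the 95% Wilson intervals of these libraries together spanned 39.7 to 52.5% and 82.5 to 89.3%. Nfatc3 held 44.6% and Nfatc2 9.37% of these counts at rest with isotype, and 9.54% and 3.61% after anti-CD3. An exact two-sided permutation test gave p = 0.1 for both anti-CD3 effects on the share of Nfatc1, the smallest p that 3 against 3 libraries allow (0.2 after adjustment over 8 tests of shares). The sum of the 3 genes was 253 ± 13.6 CPM (SD, n = 3) at rest and 321 ± 26.5 CPM with anti-CD3 and isotype. These are shares of tags, which are not scaled to transcript length, and only their change between conditions is read here.

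**Figure D2:**
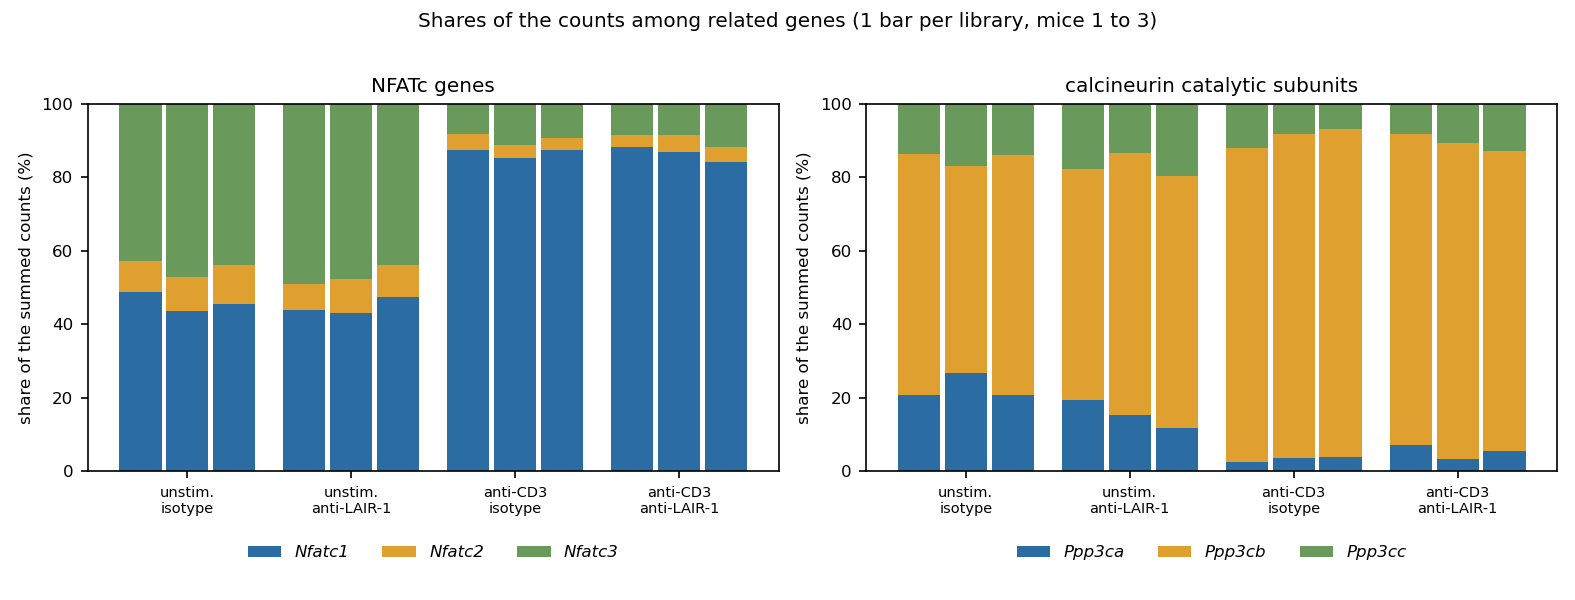
Share (%) of each gene in the summed counts of Nfatc1, Nfatc2 and Nfatc3 (left) and of Ppp3ca, Ppp3cb and Ppp3cc (right), 1 stacked bar per library in the order of mice 1 to 3 within each condition. Nfatc1 held 43.0 to 48.9% without anti-CD3 and 84.3 to 88.2% with it, and Ppp3ca shrank from 11.9 to 26.7% to 2.54 to 7.20%.

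Nfat5 (chr8:107293470-107379517, plus strand) rose in parallel with Nfatc1 when isotype was present. It was at 27.8, 28.2 and 36.1 CPM in unstimulated isotype libraries and at 68.3, 62.5 and 72.1 CPM with anti-CD3, with no overlap. The log2 difference was 1.12 (SE 0.146, adjusted p 3.3e-07). With anti-LAIR-1 it was at 36.3, 30.8 and 35.3 CPM without anti-CD3 and at 44.2, 52.0 and 50.0 CPM with it. The groups were again apart, but the log2 difference was 0.50 (SE 0.126, adjusted p 0.0014).

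Calcineurin's catalytic subunit is encoded by 3 genes, and they did not move together. Ppp3ca (chr3:136670124-136937727, plus strand), which encodes the alpha form, was at 24.5, 36.3 and 24.8 CPM in unstimulated isotype libraries and at 2.12, 3.60 and 3.38 CPM with anti-CD3. The latter values rest on 7, 17 and 21 counts. The log2 difference was -3.21 (SE 0.276, adjusted p 3.6e-10). Under anti-LAIR-1 it was at 26.6, 20.7 and 14.2 CPM without and 6.61, 3.21 and 4.87 CPM with anti-CD3, a log2 difference of -2.04 (SE 0.274, adjusted p 1.7e-06). No stimulated library reached the level of an unstimulated one.

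Ppp3cb (chr14:20499364-20546573, minus strand), which encodes the beta form, was at 77.8, 76.7 and 78.2 CPM in unstimulated isotype libraries and at 71.3, 84.6 and 78.8 CPM with anti-CD3. The stimulated libraries lay on both sides of the unstimulated ones. The log2 difference was -0.02, with a 95% interval of -0.26 to 0.23 that leaves out a change of the size seen for Ppp3ca or Ppp3cc. With anti-LAIR-1 it was at 85.4, 95.5 and 81.6 CPM without and 77.7, 80.3 and 70.8 CPM with anti-CD3. Here the groups did not overlap, and the log2 difference of -0.20 (95% interval -0.41 to 0.01, adjusted p 0.079) missed the threshold. Under upper quartile scaling, which put the median of all genes in this comparison at -0.24 in place of -0.04, the difference was -0.41 (adjusted p 0.0013), and it also passed among genes with at least 10 counts in every library (-0.25, adjusted p 0.035).

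Ppp3cc, which encodes the gamma form, was at 16.2, 22.9 and 16.7 CPM with isotype and no anti-CD3 and at 9.98, 7.84 and 5.95 CPM with anti-CD3. The log2 difference was -1.31 (SE 0.260, adjusted p 0.00010). With anti-LAIR-1 it went from 24.1, 17.8 and 23.3 CPM to 7.55, 9.80 and 11.2 CPM, a log2 difference of -1.21 (SE 0.203, adjusted p 2.6e-05). All stimulated libraries were below all unstimulated ones.

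The share of Ppp3cb in the counts of the 3 catalytic genes went from 62.5% ± 5.21 (SD, n = 3) at rest to 87.7% ± 1.99 with anti-CD3 and isotype, and from 67.5% ± 4.37 to 84.0% ± 2.34 with anti-LAIR-1. That of Ppp3ca went from 22.7% ± 3.48 to 3.37% ± 0.726 and from 15.6% ± 3.82 to 5.42% ± 1.88. The share of Ppp3cc went from 14.8% ± 1.73 to 8.96% ± 2.69 and from 16.8% ± 3.23 to 10.6% ± 2.35, for which the exact permutation test again gave p = 0.1 in both cases. Summed over the 3 genes, the level fell from 125 ± 9.74 to 89.2 ± 6.35 CPM with isotype and from 129.7 ± 9.27 to 90.7 ± 3.36 CPM with anti-LAIR-1.

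Ppp3r1, the calcium-binding regulatory subunit, was at 61.2, 57.2 and 70.1 CPM in unstimulated isotype libraries and 51.4, 41.3 and 51.9 CPM with anti-CD3. Its log2 difference was -0.41 (SE 0.138, adjusted p 0.011). With anti-LAIR-1 it was at 67.4, 69.0 and 66.4 CPM without and 59.9, 50.5 and 56.6 CPM with anti-CD3, a log2 difference of -0.28 (SE 0.108, adjusted p 0.024). These were the smallest changes that passed, and they were lost more easily than the others: without the anti-CD3 isotype library of mouse 2 the first had an adjusted p of 0.10, and the second was called in 9 of 16 alternative settings and lost without the unstimulated anti-LAIR-1 library of mouse 1 (adjusted p 0.050) or 2 (0.052) or the anti-CD3 anti-LAIR-1 library of mouse 2 (0.15) or 3 (0.052). In DESeq2 with the mouse block neither passed (adjusted p 0.064 and 0.14).

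Of the genes whose products restrain calcineurin, neither passed the test with anti-CD3. Cabin1 (chr10:75646112-75764341, minus strand), a scaffold that also holds the transcription factor MEF2 in check, was at 52.0, 54.3 and 41.0 CPM at rest with isotype and 31.1, 51.7 and 35.4 CPM with anti-CD3. The stimulated library of mouse 2 lay within the unstimulated range, and the log2 difference of -0.36 (SE 0.173) had an adjusted p of 0.071. With the mouse as a block the adjusted p was 0.042, without the anti-CD3 isotype library of mouse 2 it was 0.0058 (-0.57), and without the unstimulated isotype library of mouse 3 it was 0.029 (-0.46). With anti-LAIR-1 the values were 42.4, 49.1 and 42.6 CPM without and 29.8, 37.3 and 46.6 CPM with anti-CD3 (-0.26, adjusted p 0.12), and without the anti-CD3 anti-LAIR-1 library of mouse 3 the difference was -0.40 (adjusted p 0.019).

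Rcan1, a feedback inhibitor of calcineurin and a well-known NFAT target in other cells, was at 7.28, 10.2 and 14.0 CPM at rest with isotype and 15.7, 10.8 and 11.3 CPM with anti-CD3. It was higher in mouse 1 by 1.06 on the log2 scale, higher in mouse 2 by 0.08 and lower in mouse 3 (-0.30), and the fitted difference was 0.25 (95% interval -0.32 to 0.83, adjusted p 0.43). With anti-LAIR-1 it was at 5.82, 8.76 and 11.8 CPM without and 7.82, 9.46 and 6.14 CPM with anti-CD3 (-0.17, 95% interval -0.74 to 0.41). Each library held between 21 and 70 counts of the gene, and the mice did not share a direction in either comparison.

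Rcan1 has one promoter that is known to be driven by NFAT and another that is not. Its annotated protein-coding transcripts end at 4 places, with no gap over 1 kb between neighbouring ends. All are summed under the gene's symbol, so that the counts do not separate the promoters. Both windows are shown for that reason, and that of Nfat5 because it is the member that differed with anti-LAIR-1. Each is the 250 bases before a RefSeq start on GRCm38.p6, written 5′ to 3′ along the gene's strand, and capitals mark the core of the NFAT motif, GGAAAA, or its reverse complement TTTTCC. The outer start of Rcan1 follows chr16:92466170-92466419 (minus strand), the inner one chr16:92400079-92400328 (minus strand), and the start of Nfat5 chr8:107293220-107293469 (plus strand).
Rcan1 outer start: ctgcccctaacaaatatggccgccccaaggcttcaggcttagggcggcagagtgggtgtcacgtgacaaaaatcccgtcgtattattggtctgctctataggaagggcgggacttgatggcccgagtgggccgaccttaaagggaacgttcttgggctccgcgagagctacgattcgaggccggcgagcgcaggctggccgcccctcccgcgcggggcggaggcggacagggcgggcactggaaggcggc
Rcan1 inner start: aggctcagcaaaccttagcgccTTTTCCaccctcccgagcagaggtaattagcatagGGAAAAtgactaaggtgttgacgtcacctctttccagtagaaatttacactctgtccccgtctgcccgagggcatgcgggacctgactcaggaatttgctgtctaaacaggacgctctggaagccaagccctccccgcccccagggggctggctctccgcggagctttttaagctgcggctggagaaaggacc
Nfat5 start: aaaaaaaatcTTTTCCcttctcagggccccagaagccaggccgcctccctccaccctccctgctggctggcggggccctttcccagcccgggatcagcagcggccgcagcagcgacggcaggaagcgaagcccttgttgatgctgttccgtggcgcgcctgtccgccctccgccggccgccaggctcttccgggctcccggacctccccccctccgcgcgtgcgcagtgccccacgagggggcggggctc

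The inner Rcan1 window holds 2 matches, which begin 228 and 193 bases before the start, the outer window none, and the Nfat5 window 1, which begins 240 bases before the start. Windows on chromosome 18, where Nfatc1 lies, were left out, so that Nfatc1 was not searched for the motif. Outside that chromosome, RefSeq windows were found for 7 of the 10 members, 10 windows in all. Of these, 3 genes had a match: Rcan1, Nfat5 and Ppp3cb, with 2 matches in the window chr14:20546574-20546823. Of all 32851 windows of this length, 20.4% hold the motif at least once and 2.85% at least 2 times. A match of letters is a description of the window and not evidence of binding.

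**Figure D3:**
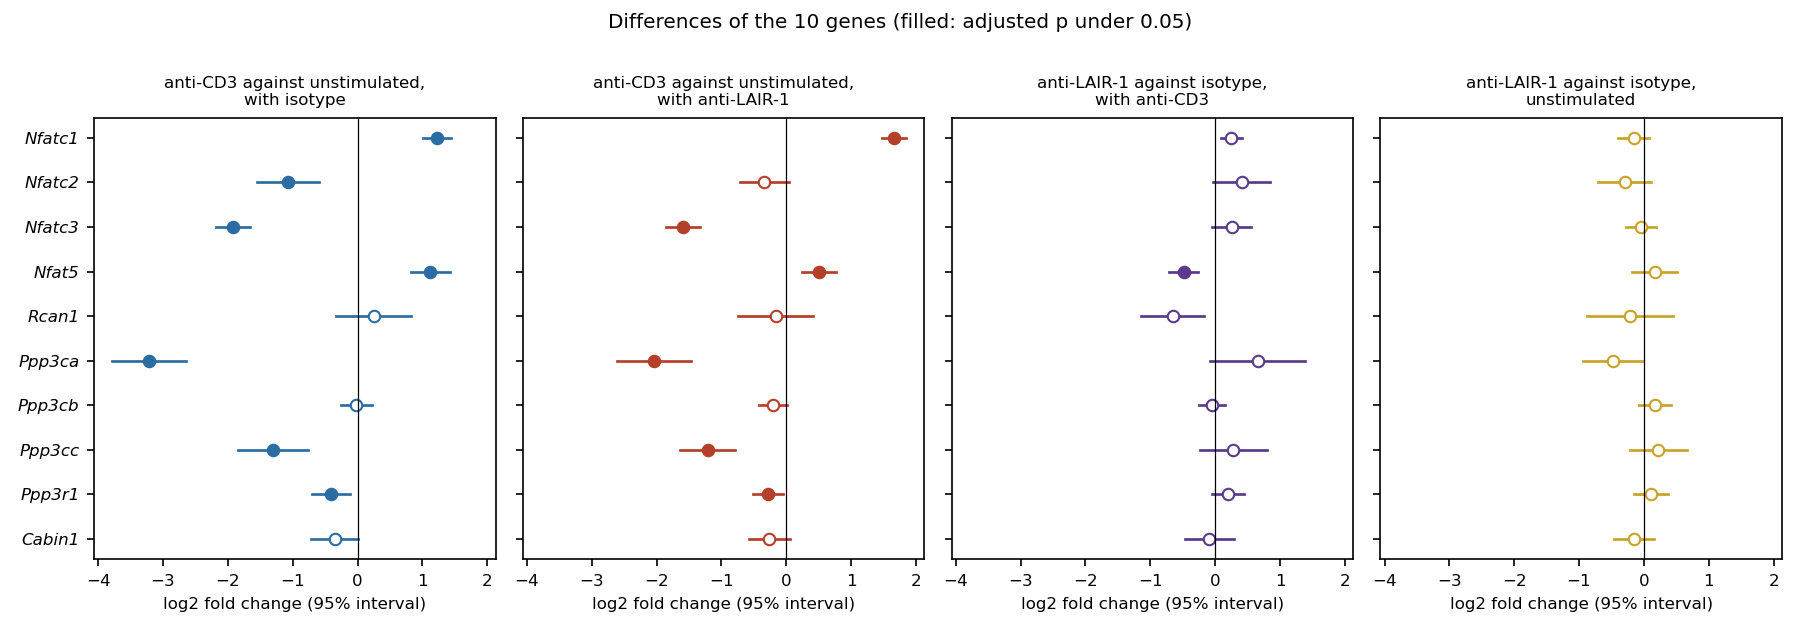
Log2 fold changes of the 10 genes in 4 comparisons, with 95% intervals from edgeR; filled points had an adjusted p under 0.05. In the third panel, for anti-LAIR-1 in stimulated cells, Nfat5 at -0.48 is the filled point, and in the fourth, without anti-CD3, no point is filled.

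The comparison of anti-LAIR-1 with isotype asks whether triggering the receptor changes these genes. With anti-CD3, 1 of the 10 genes passed, Nfat5, where 5.76% of the 8800 genes tested passed (3.9% higher, 1.86% lower). The summed CD8 T cell and NK cell lists given above were also higher in these anti-LAIR-1 libraries, and their part in the result was not tested. Nfat5 was at 68.3, 62.5 and 72.1 CPM with isotype and at 44.2, 52.0 and 50.0 CPM with anti-LAIR-1, so that it was lower in each of the 3 mice and the groups did not overlap. It was 1.40-fold lower, a log2 difference of -0.48 (SE 0.104, 95% interval -0.70 to -0.27, adjusted p 0.0090). Leaving out the anti-CD3 anti-LAIR-1 library of mouse 1 gave -0.41 (adjusted p 0.051), and the call was also lost in DESeq2 with the mouse block (adjusted p 0.072) and in counts thinned to 1781218 per library (adjusted p 0.083).

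Nfatc1 was higher with anti-LAIR-1 in each of the 3 mice, at 339, 340.5 and 320.1 against 307, 257 and 273 CPM, and the groups did not overlap. The log2 difference of 0.25 (SE 0.0769, 95% interval 0.09 to 0.41, adjusted p 0.065) missed the threshold, which it passed without the anti-CD3 isotype library of mouse 1 (0.32, adjusted p 0.032). Rcan1 was lower in each mouse, at 7.82, 9.46 and 6.14 against 15.7, 10.8 and 11.3 CPM, with no overlap either. Its log2 difference of -0.66 (SE 0.228, 95% interval -1.14 to -0.18, adjusted p 0.11) did not pass the test. Groups that do not overlap were thus found for 3 of the 10 members and for 24% of all genes tested.

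The other 7 members overlapped between the antibodies. Ppp3ca was at 0.66 on the log2 scale (95% interval -0.08 to 1.39), Nfatc2 at 0.41 (-0.04 to 0.85), Ppp3cc at 0.28 (-0.24 to 0.81), Nfatc3 at 0.26 (-0.05 to 0.56) and Ppp3r1 at 0.20 (-0.04 to 0.45). Ppp3cb, at -0.05 (-0.25 to 0.15), and Cabin1, at -0.09 (-0.46 to 0.29), were nearest to 0. The share of Nfatc1 among the NFATc counts was 86.9% with isotype and 86.5% with anti-LAIR-1 (exact permutation p = 0.7).

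Without anti-CD3, none of the 10 genes passed the test, as was true of the 8770 genes tested (0% called by edgeR and 0 genes by DESeq2, with 384 genes or 4.38% at an unadjusted p under 0.05). Ppp3ca had the largest difference, -0.48 (95% interval -0.94 to -0.02, unadjusted p 0.040, adjusted p 0.997), and was lower in 2 of the 3 mice. Nfatc2 (-0.30, 95% interval -0.71 to 0.11) and Ppp3cb (0.17, -0.07 to 0.42) were the members whose groups did not overlap, against 9.66% of all genes tested. Nfat5 was at 0.17 (-0.18 to 0.51) and Nfatc1 at -0.16 (-0.39 to 0.08).

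The interaction asks whether the effect of anti-CD3 differed between the antibodies. No member passed, where 191 of 9223 genes (2.07%) did (1.82% positive, 0.249% negative). Nfat5 came nearest, at -0.65 (SE 0.191, adjusted p 0.078), with the same sign in each of the 3 mice, and it passed without the unstimulated isotype library of mouse 3 (-0.77, adjusted p 0.041). Nfatc1 was at 0.41 (adjusted p 0.14), Ppp3ca at 1.14 (adjusted p 0.20) and Rcan1 at -0.45 (adjusted p 0.73). The interaction, the anti-CD3 effect with isotype and the anti-LAIR-1 effect with anti-CD3 share the anti-CD3 isotype libraries, so that their values are not independent.

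The order of the 4 conditions differed from gene to gene. Nfatc1 was highest with anti-CD3 and anti-LAIR-1, then with anti-CD3 and isotype, then in the unstimulated groups, which overlapped each other. Nfat5 was highest with anti-CD3 and isotype, then with anti-CD3 and anti-LAIR-1, again above unstimulated groups that overlapped. Nfatc3, Ppp3ca and Ppp3cc each fell into a pair of unstimulated groups above a pair of anti-CD3 groups, with overlap inside each pair. Nfatc2 was highest in unstimulated isotype libraries, above unstimulated anti-LAIR-1 libraries with no overlap, and each later group overlapped the next. For Ppp3cb, Ppp3r1, Rcan1 and Cabin1 each group overlapped with its neighbour in the order.

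Genes whose 4 group means were most like those of a member were found over the 9223 genes, as the root mean square difference of centred log2 CPM. For Nfatc1 these were Pde12, Ehd4 and Tmem150a, at 0.04, 0.05 and 0.06. For Nfat5 they were Ttc30a1, Prdm16 and Malt1, each at 0.04, of which Malt1, a protease and scaffold that links the antigen receptor to NF-kB, had log2 differences of 1.23 with anti-CD3 and -0.60 with anti-LAIR-1 in stimulated cells. For Nfatc3 they were Zfhx2, Emb and Irf2 (each at 0.02), for Nfatc2 Kidins220 (0.03), Osbpl11 and 1700012D01Rik (0.04), for Ppp3cc Zfp846, Zfp78 and Phc1 (each at 0.03), and for Ppp3ca 1700056E22Rik (0.08), Blvrb (0.09) and Tax1bp3 (0.10). Of these, 1700056E22Rik and Zfp78 were too low to test in both of these comparisons, and Blvrb was too low in the second. With 4 means per gene, many genes come this close to each other.

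The genes around calcineurin and NFAT in the pathway were taken from lists of known members. These lists were chosen with earlier results of these data known, so that counts over them are descriptions. Of 21 partners and other substrates of calcineurin, 16 could be tested with anti-CD3 and isotype, and 4 rose and 7 fell, a share near the 71.3% of all genes that passed. The immunophilins to which tacrolimus and cyclosporin bind both rose: Fkbp1a by 2.06 on the log2 scale, from 288 to 335 CPM at rest to 1284 to 1418 CPM, and Ppia by 0.76. Akap1, which anchors kinases and phosphatases at mitochondria, rose by 3.30. Rcan3, a relative of Rcan1, fell by 2.35, from 26.5, 31.8 and 18.9 to 4.23, 4.66 and 6.27 CPM, and Akap5, which anchors calcineurin at membranes, by 2.64. Tfeb, a lysosomal regulator that calcineurin dephosphorylates, fell from 11, 19 and 12 counts (3.64, 7.76 and 6.47 CPM) to 0, 0 and 7 counts (0, 0 and 1.13 CPM), and the size of its drop is poorly set, since leaving out 1 library moved the log2 difference of -3.54 to between -7.18 and -2.98 (the lowest without the anti-CD3 isotype library of mouse 3). Under anti-LAIR-1, 5 of 16 rose and 7 fell, where 36.4% of all genes were higher and 36.3% lower. Akap1 (3.04), Fkbp1a (2.13) and Ppia (0.78) again led, and Akap5 (-2.39), Rcan3 (-2.11) and Chp1 (-1.54), a calcineurin-like calcium-binding protein, fell most. None of the 15 tested passed between the antibodies with anti-CD3. Rcan2, Ppp3r2, Mef2b, Mef2c and Nfatc4 were too low to test or not in the table.

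Of 20 genes of NFAT kinases, scaffolds and nuclear transport, 15 were tested, and with isotype 5 rose and 6 fell, again near the 71.3% of all genes. Homer1, a scaffold protein, rose by 1.79, the importin Kpnb1 by 1.21 and the kinase Mapk8 (JNK1) by 0.64. Prkaca, a catalytic subunit of protein kinase A, fell by 2.11, Iqgap1, a scaffold reported to hold NFAT in the cytoplasm, by 1.42 and Gsk3b, which phosphorylates NFAT for export, by 1.07. With anti-LAIR-1, 6 rose and 8 fell, where 36.4% of all genes were higher and 36.3% lower. The list was led by Homer1 (1.57), Kpnb1 (1.23) and Mapk8 (0.82) and by Prkaca (-1.34), Iqgap1 (-1.18) and the kinase Dyrk2 (-1.09). Prkaca was the gene of this list that differed between the antibodies with anti-CD3: it was at 9.67, 4.66 and 8.85 CPM with isotype and 11.7, 17.1 and 17.4 CPM with anti-LAIR-1, a log2 difference of 0.98 (adjusted p 0.027). Leaving out the anti-CD3 isotype library of mouse 2 (0.72, adjusted p 0.13) or the anti-CD3 anti-LAIR-1 library of mouse 2 (adjusted p 0.11) or mouse 3 (adjusted p 0.085) ended that call. So did DESeq2 with the mouse block (adjusted p 0.12) and thinned counts (adjusted p 0.18). The kinase Mapk14 (p38), at 0.42 (adjusted p 0.093), passed with the mouse as a block (0.46, adjusted p 0.033). Dyrk1b, Nron, Homer2, Homer3 and Lrrk2 were not tested.

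Calcium entry upstream of calcineurin was covered by 16 genes, 14 of them tested, and with anti-CD3 and isotype 5 rose and 5 fell, near the background of 35.3% higher and 36.1% lower. The calcium pump Atp2a2 rose by 2.45, the adaptor Lcp2 (SLP-76) by 1.86 and the calcium sensor Stim2 by 1.46, while the channel gene Orai2 fell by 3.41 and the inositol trisphosphate receptors Itpr3 and Itpr2 by 3.31 and 2.52. With anti-LAIR-1, 5 rose and 8 fell, where 36.4% of all genes were higher and 36.3% lower. The list was led by Atp2a2 (2.40), Lcp2 (1.78) and the channel gene Orai1 (1.44) and by Itpr3 (-2.66), Orai2 (-2.59) and Stim1 (-2.21). Between the antibodies with anti-CD3, Orai2 was higher with anti-LAIR-1, at 14.6, 18.9 and 16.5 against 8.47, 9.96 and 9.33 CPM (log2 difference 0.83, adjusted p 0.014), and the adaptor gene Lat was higher by 0.26 (adjusted p 0.028). The call of Orai2 was lost without the anti-CD3 anti-LAIR-1 library of mouse 2 (adjusted p 0.087), in thinned counts (0.12) and in DESeq2 with the mouse block (0.14). That of Lat was lost without any 1 of 5 of the 6 libraries (adjusted p 0.058 to 0.13), the exception being the anti-CD3 isotype library of mouse 2. It was also lost in DESeq2 with the block (0.084), in thinned counts (0.055) and with all 12 libraries in the fit (0.051). The interaction for Orai2, 0.79 (adjusted p 0.062), passed with the mouse as a block (0.78, adjusted p 0.037). Plcg1 and Atp2b4 were too low to test.

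Of the AP-1 genes that act with NFAT, 6 of 9 were tested with isotype, and 4 passed, where 71.3% of all genes did. Fosl2 rose by 1.76, Fos by 1.45 and Junb by 0.71, and Batf fell by 1.61. With anti-LAIR-1, 4 of 7 rose, led by Fosl2 (1.78), Fos (1.46) and Junb (0.91), and Batf (-0.78) and Jun (-0.73) fell. Of all genes, 36.4% were higher and 36.3% lower there. Between the antibodies with anti-CD3 none of the 7 passed. With the mouse as a block, Jund passed both with anti-CD3 and isotype (0.21, adjusted p 0.047, against 0.14 without the block) and between the antibodies (0.29, adjusted p 0.024, against 0.059). Fosl1 and Batf3 were not tested, nor Fosb with isotype.

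Known NFAT target genes rose together with anti-CD3. Of 23 listed, 15 were tested with isotype, and 14 rose and 1, Tox, fell (-1.15), with a median log2 difference of 5.08 against -0.03 for all genes, 35.3% of which rose. Genes that are silent at rest were tested because they were counted after stimulation, so that this count describes those that passed the filter, and Csf2, Il3, Il4, Cd40lg, Fasl, Egr3, Nr4a3 and Lag3 were not tested. Ifng had 0 counts in the unstimulated isotype libraries and 38.7, 38.2 and 38.4 CPM with anti-CD3, at least 94.0-fold higher against a limit of 3 counts over the group, and Il2, also at 0 counts, rose to 15.1, 17.8 and 17.2 CPM, at least 40.9-fold higher. Both bounds lie above the median, so that setting the genes to them could not move it from 5.08. Ccl4 rose by 8.46 and Ccl3 by 8.44. With anti-LAIR-1, 14 of 15 rose, led by Ccl4 (7.33), Xcl1 (7.25) and Ccl3 (6.95) beside Ifng and Il2, which had 2 and 1 counts at rest, and Tox fell (-0.64), with a median of 4.56. Of all genes, 36.4% were higher there, with a median of -0.04.

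Between the antibodies with anti-CD3, 6 of the 16 NFAT targets tested were lower with anti-LAIR-1 and none was higher. Of all genes, 1.86% were lower and 3.9% higher. The median was -0.26 for the targets and 0.00 for all genes. Since the list was chosen with earlier results of these data known, this contrast only describes the listed genes. Ifng was at 16.9, 15.2 and 9.75 CPM (-1.44, adjusted p 4.1e-05) and Il2 at 9.31, 6.42 and 8.26 CPM (-1.07, adjusted p 0.0033), and both were lower than every isotype library. Ccl3 (-0.86), Ccl4 (-0.60), Il2ra (-0.49) and Xcl1 (-0.33) were lower in each of the 3 mice too, and the call of Ccl4 was lost in DESeq2 with the mouse block (adjusted p 0.070). Nr4a1, Egr2, Irf4 and Pdcd1, also NFAT targets, were at -0.05, 0.12, -0.11 and -0.16 and did not pass. Without anti-CD3, 12 targets could be tested and none passed.

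**Figure D4:**
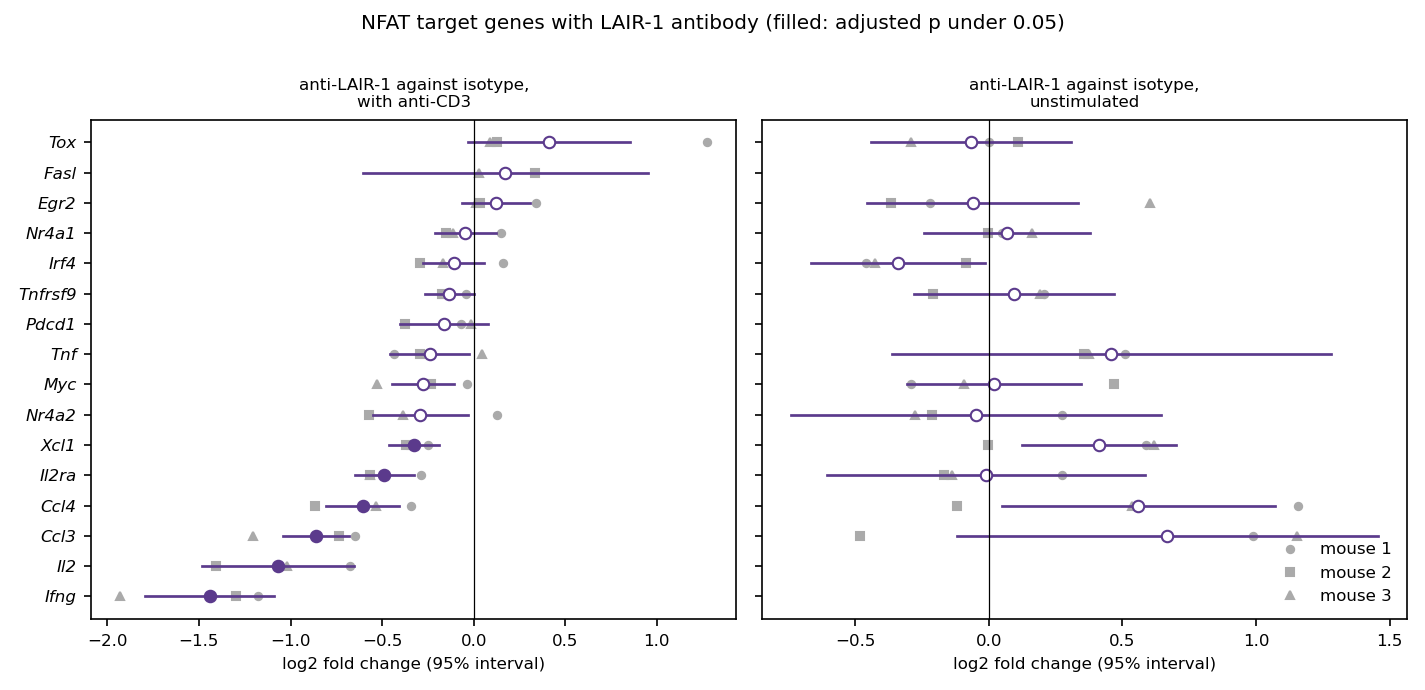
Log2 fold change of anti-LAIR-1 against isotype for the 16 NFAT target genes tested with anti-CD3 (left) and for the 12 of them tested without it (right), with 95% intervals, the values of single mice in grey, and filled points at an adjusted p under 0.05; the axes of the panels differ. On the left the 6 filled points lie between -1.44 (Ifng) and -0.33 (Xcl1), and on the right no point is filled.

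NFAT5 targets could be set beside Nfat5 itself. Of 5 genes on that list, 3 were tested. Slc5a3, the transporter of myo-inositol, went from 7.28, 9.39 and 10.2 to 78.3, 67.0 and 65.1 CPM with anti-CD3 and isotype (log2 difference 2.95), and Slc6a6, the taurine transporter, from 55.6, 60.8 and 59.3 to 88.9, 127 and 117 CPM (0.90). With anti-LAIR-1 all 3 rose, Slc5a3 by 3.49, Hspa4l by 0.55 and Slc6a6 by 0.26, where 36.4% of all genes were higher. There the call of Slc6a6 was kept in 10 of 16 alternatives. Among others, it was lost under upper quartile scaling (0.06, adjusted p 0.64) and without the unstimulated anti-LAIR-1 library of mouse 2 (adjusted p 0.099) or the anti-CD3 anti-LAIR-1 library of mouse 1 (adjusted p 0.093). That of Hspa4l was kept in 11 of 16. Among others, it was lost without the unstimulated anti-LAIR-1 library of mouse 1 (0.52) or 3 (0.49) or the anti-CD3 anti-LAIR-1 library of mouse 1 (0.40, adjusted p 0.12). Between the antibodies with anti-CD3, Slc6a6 was lower with anti-LAIR-1, at 84.7, 77.7 and 76.9 CPM (-0.49, adjusted p 0.012), while Slc5a3 was at -0.19 and Hspa4l at 0.62 (adjusted p 0.063). The call of Slc6a6 was lost without the anti-CD3 isotype library of mouse 2 (-0.39, adjusted p 0.074) or the anti-CD3 anti-LAIR-1 library of mouse 2 (adjusted p 0.052). It was also lost in thinned counts (adjusted p 0.094).

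Upper quartile scaling put the median of all genes with anti-CD3 and isotype at -0.20 in place of -0.03, and no member that had passed changed its direction under any of the scalings tried.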

How the data were processed

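The deposited values are counts of CEL-seq tags per gene symbol. The authors aligned reads to the mouse transcriptome (mm10) with BWA MEM, dropped reads that mapped equally well to several places and counted the rest. Whether molecular identifiers were collapsed is not given in the sources used here, so that intervals of shares cover counting error only. From the deposited counts, groups were compared with edgeR 4.0.16 in R 4.3.3 (TMM, filterByExpr, quasi-likelihood F-test, Benjamini-Hochberg adjustment over all genes tested, threshold 0.05). Each comparison of 2 groups was fitted on its 6 libraries and the interaction on all 12. DESeq2 1.42.0 was an alternative. Fits were tested on simulated data in which 200 genes were changed 2-fold. The edgeR fits of 2 groups found 76 to 85.5% of these genes, with 4.27 to 6.04% of their calls false. The interaction fit found 55.5%, with 7.5% of its calls false, so that it can miss changes of this size. In the data, anti-CD3 called 71.3% of genes with isotype and 72.7% with anti-LAIR-1, far more than were changed in the simulation. These rates therefore do not carry over to the 2 anti-CD3 comparisons. CPM were normalised by TMM over 12 libraries, and 3 counts corresponded to 0.405 to 1.62 CPM.

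Replicates are mice. The mouse numbers in the labels pair the libraries, since cells of the same animal were divided over the conditions. Over 9223 genes, deviations from group means correlated with a mean r of 0.05 within a mouse. The mean of -0.02 between mice is not separate evidence, because the deviations within a group cancel out and nearly fix it. The reported fits have no block, as the study states none.

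The members and gene lists were chosen with earlier results of these data known. All 10 members are named. For each list and comparison, the 3 highest and 3 lowest called genes with the same direction in 3 mice are named, with those not tested. For members called with an absolute log2 change over 1, the 3 most similar genes are given. A result on 1 gene of the lists is not reported here, though the gene is in their counts. Further genes of these lists named in the text were chosen after their values were seen. Replicate libraries differed by more than sampling noise, with a chi-square per gene of at least 3.59. Promoters were taken from RefSeq (GRCm38.p6) and gene positions from GENCODE M21.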

Additional observations from a re-analysis of the deposited data

Results flagged for a closer look

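The interaction of the antibodies passed the test for no member, and for 4 genes of the pathway lists given here, so that stimulated and unstimulated cells differed in the antibody's effect on them. Xcl1 had an interaction of -0.73 (SE 0.139, edgeR adjusted p 0.0030), with -0.33 for anti-LAIR-1 with anti-CD3 and 0.41 without. Ccl4 had -1.16 (SE 0.245, adjusted p 0.0092), with -0.60 and 0.56. Ccl3 had -1.52 (SE 0.331, adjusted p 0.011), with -0.86 and 0.67. Slc6a6 had -0.66 (SE 0.170, adjusted p 0.036), with -0.49 and 0.18. None of the 4 passed on its own without anti-CD3. The sign was the same in each of the 3 mice for all 4. At rest Ccl3 had 8 to 42 counts per library and Ccl4 23 to 98. Leaving out the unstimulated anti-LAIR-1 library of mouse 1 ended the calls of Ccl3 (-1.25, adjusted p 0.087) and Ccl4 (-0.89, adjusted p 0.068). The call of Ccl3 was also lost without the unstimulated anti-LAIR-1 library of mouse 3 (adjusted p 0.061) and that of Ccl4 without the unstimulated isotype library of mouse 1 (adjusted p 0.053). The call of Slc6a6 was kept in 11 of 21 alternatives and lost in 9 of the 12 fits without 1 library (adjusted p 0.056 to 0.13), the exceptions being mouse 2 of the unstimulated anti-LAIR-1 group and mouse 1 of both anti-CD3 groups. With 3 libraries per group, single libraries that stand apart were not looked for.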

How the results depend on the processing

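Over the alternatives, 793 of 843 values of members kept their direction and their side of the threshold, 22 turned sign (none of them called), 15 came to pass and 13 no longer passed. With anti-CD3, anti-LAIR-1 called 507 genes, against 239 in DESeq2 with the replicate block, 282 in thinned counts and 293 to 427 with 1 library left out, and 1 member, against 0, 0 and 0 to 2, and 2 with no filter on low counts. Without anti-CD3 it called 0 genes, 5 with no filter and 0 to 1 with a library left out. The interaction called 191 genes, 115 in thinned counts and 103 to 186 with a library left out, and 0 members, against 0 to 1. The first count fell most without the anti-CD3 isotype library of mouse 2 (293) or the anti-CD3 anti-LAIR-1 libraries of mice 2 (315) and 3 (334). That of the interaction fell without the unstimulated libraries of mouse 2 with isotype (118) and of mice 1 (125) and 3 (121) with anti-LAIR-1, and without the anti-CD3 libraries of mice 1 (125) and 2 (110) with isotype and mouse 3 with anti-LAIR-1 (103). With 12 libraries in the fit, 79.8% of the genes called for anti-LAIR-1 with anti-CD3 were higher, against 67.7%. In edgeR with the mouse as a block, 549 genes and 1 member were called for anti-LAIR-1 with anti-CD3, and of the members only Cabin1 changed its call. In thinned counts the share of Nfatc1 with anti-CD3 moved by -3.01 points with anti-LAIR-1, against -0.38. Directions turned for Ppp3cb with anti-CD3 and isotype (0.074 with no filter, 0.017 with 12 libraries in the fit, -0.051 to 0.065 with a library left out) and for anti-LAIR-1 under stimulation (0.0052 in thinned counts, -0.10 to 0.0080), for Cabin1 in the latter (-0.26 to 0.15) and in the interaction (-0.037 in thinned counts, -0.10 to 0.30), for Rcan1 with anti-CD3 and anti-LAIR-1 (-0.38 to 0.11) and with anti-LAIR-1 at rest (-0.49 to 0.022), for Nfatc3 at rest (-0.14 to 0.0036), and for Ppp3cc (-0.13 to 0.24) and Ppp3r1 (-0.011 to 0.16) in the interaction. The cause of these changes was not tested. Thinning and leaving out libraries lower the counts by construction, and the fits with no filter or with 12 libraries do not. At these depths, levels under 0.405 to 1.62 CPM could not be told from 0.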
